A study of Mus musculus with 55 samples.

Results

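The Pax genes encode transcription factors with a paired DNA-binding domain, and most of them are switched on in only a few organs of the embryo. Pax6 acts in every endocrine cell of the islet and Pax4 in the progenitors of its β cells, whereas the other members of the family pattern organs outside the pancreas. Pax1 and Pax9 act in the sclerotome, pharyngeal pouches and teeth, Pax2 and Pax8 in the kidney, ear and thyroid, Pax5 in B lymphocytes and the midbrain, and Pax3 and Pax7 in the neural crest, dorsal neural tube and skeletal muscle progenitors. In most cells that do not use them, such regulators carry H3K27me3, the histone mark that the Polycomb repressive complex 2 (PRC2) deposits and that PRC2 needs its subunit EED to lay down.

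The 7 genes of the family without an established role in the islet (Pax1, Pax2, Pax3, Pax5, Pax7, Pax8 and Pax9) were followed here among the 47937 genes counted by bulk RNA-seq. They were taken by name, and each matched a single Ensembl identifier. The 16 libraries were made from hand-picked whole islets of male mice of strain C57B6/J. In the βEedKO animals (KO) both copies of Eed carried floxed alleles, which a Cre transgene under the rat insulin promoter deletes in β cells, so the other cells of the islet keep Eed. Heterozygous animals (HET) and wild-type controls (WT) were also profiled. Whether the controls carried Cre was not given in the sources used here. At 8 weeks there were 3 WT, 3 HET and 3 KO libraries, and at 25 weeks 3 WT, 2 HET and 2 KO libraries. The KO libraries at 25 weeks were each pooled from several animals. A map of chromatin states of wild-type islets was deposited as well, in which 200 bp bins carry a state letter and a few stretches carry none. Per the study's methods it joined ChIP-seq of male mice made there with published data. These were ChIP-seq, partly of female mice, and DNA methylation of young islets.

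Levels are given as CPM, the reads of a gene scaled to the size of its library with the TMM factors of edgeR. Between 4645393 and 22925359 reads were assigned to genes per library, the smallest total being that of WT replicate 2 at 25 weeks. Eed itself, whose reads also come from cells that keep the gene, measured 23.2 ± 4.66 CPM (SD, n = 3) in WT and 14.9 ± 0.954 CPM (n = 2) in KO islets at 25 weeks, and 29.4 ± 4.89 CPM (n = 3) against 14.4 ± 0.813 CPM (n = 3) at 8 weeks. Insulin and glucagon genes together took 10.1% to 19.3% of the reads in WT and 1.8% to 3.91% in KO islets at 25 weeks. Acinar marker genes summed to 332383 CPM in KO replicate 2 and to 10422 CPM in KO replicate 3 at 25 weeks. In WT islets of that age they summed to 25439 to 184555 CPM. These sums carry the TMM factors and are not shares of the reads. In whole islets, fewer cells of a type and less RNA per cell cannot be told apart. Nothing in the labels says which libraries share an animal, so the p-values measure the spread between these libraries.

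The start sites of the Pax genes lay in Polycomb chromatin in wild-type islets. Of the 7 genes, Pax1, Pax3, Pax5, Pax7 and Pax9 started in state M, which combines H3K4me3 with high H3K27me3 and which holds 5.91% of the 25640 genes with a state at their start but 1.23% of the segmented genome. Pax2 started in state L, a bivalent state with more H3K4me3, and its other annotated transcripts started in state M. Pax8 started in state N, a Polycomb state without the bivalent signature, with state M in the bins just downstream. The islet gene Pax6 started in state A, that of active promoters, and Pax4 in state N.

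The promoters are printed for 4 of the genes because these carry the contrast described below: Pax9 and Pax2 were read in KO islets at 25 weeks, Pax7 shared its state with Pax9 and was not, and Pax8 stood apart in both state and level. RefSeq promoters (GRCm38.p6, from 250 bases before to 50 after the RefSeq start) were found for 6 of the 7 genes, all but Pax3. Each is given 5′ to 3′ on the strand of the gene, with CG dinucleotides in capitals. They lie at chr12:56695221-56695520 on the plus strand (Pax9), chr4:139832919-139833218 on the minus strand (Pax7), chr19:44756656-44756955 on the plus strand (Pax2, the last of its 3 RefSeq starts) and chr2:24475550-24475849 on the minus strand (Pax8).
Pax9: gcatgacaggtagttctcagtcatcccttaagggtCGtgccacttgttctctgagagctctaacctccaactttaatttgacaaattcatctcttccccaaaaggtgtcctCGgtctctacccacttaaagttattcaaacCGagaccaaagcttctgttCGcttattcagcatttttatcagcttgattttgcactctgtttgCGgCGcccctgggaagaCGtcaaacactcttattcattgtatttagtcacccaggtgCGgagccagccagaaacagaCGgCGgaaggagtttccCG
Pax7: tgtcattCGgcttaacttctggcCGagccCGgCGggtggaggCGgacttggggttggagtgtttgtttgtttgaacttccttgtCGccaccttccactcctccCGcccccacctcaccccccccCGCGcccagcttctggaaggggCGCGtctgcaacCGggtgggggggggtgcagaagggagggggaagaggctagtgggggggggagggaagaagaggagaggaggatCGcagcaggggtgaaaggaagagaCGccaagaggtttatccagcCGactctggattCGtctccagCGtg
Pax2: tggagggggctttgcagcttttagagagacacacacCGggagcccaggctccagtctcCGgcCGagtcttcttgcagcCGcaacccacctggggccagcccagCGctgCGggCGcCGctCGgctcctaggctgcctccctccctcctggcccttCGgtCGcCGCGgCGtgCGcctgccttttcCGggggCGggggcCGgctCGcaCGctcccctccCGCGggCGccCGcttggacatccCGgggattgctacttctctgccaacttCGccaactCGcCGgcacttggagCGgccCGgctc
Pax8: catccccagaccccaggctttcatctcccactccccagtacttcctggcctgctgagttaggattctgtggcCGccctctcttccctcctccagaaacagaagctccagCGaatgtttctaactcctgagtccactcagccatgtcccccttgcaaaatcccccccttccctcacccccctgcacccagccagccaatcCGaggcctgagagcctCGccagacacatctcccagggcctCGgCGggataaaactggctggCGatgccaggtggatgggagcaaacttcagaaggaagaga

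The printed Pax2 window held 30 CG dinucleotides, a count that 89.4% of the 32851 promoters of the table reach at most, and the Pax7 window held 17 (70.3%). The Pax9 window held 11 (60.4%) and the Pax8 window 7 (51.4%). Of the windows not printed, that of Pax1 held 13 and that of Pax5 held 23. Those of the other Pax2 starts held 7 and 23, both in state M. The median promoter held 7 CG dinucleotides, with quartiles of 3 and 20. None of the 8 windows of the 6 genes contained TATAAA on either strand, which 13.6% of all promoters did. The bins of the printed windows carried state M at Pax9 and Pax7, L at Pax2 and N at Pax8.

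Around the start sites the domains differed in length. The unbroken run of state M measured 25 kb at Pax9, 22 kb at Pax7, 13 kb at Pax1, 11.8 kb at Pax3 and 6.8 kb at Pax5. The median run over the 1515 genes that start in state M was 3 kb, with quartiles of 1.6 and 6.2 kb, so all 5 runs exceeded the upper quartile. Counting states L, M, N and O together, the run reached 58.4 kb at Pax9, 47.6 kb at Pax3, 45.8 kb at Pax2, 34.8 kb at Pax7, 28 kb at Pax5, 25.8 kb at Pax1 and 10.8 kb at Pax8. These 4 states covered 100% of the annotated body of Pax9 (chr12:56691767-56712822, plus strand) and 97.3% of that of Pax7 (chr4:139737062-139833528, minus strand). In contrast, they covered 51.6% of Pax8 (chr2:24420560-24475599, minus strand), of which 10.6% lay in the states of active or transcribed chromatin (A to J). Pax8 was thus the member with the shortest Polycomb run at its start and the least Polycomb cover of its body.

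**Figure D1:**
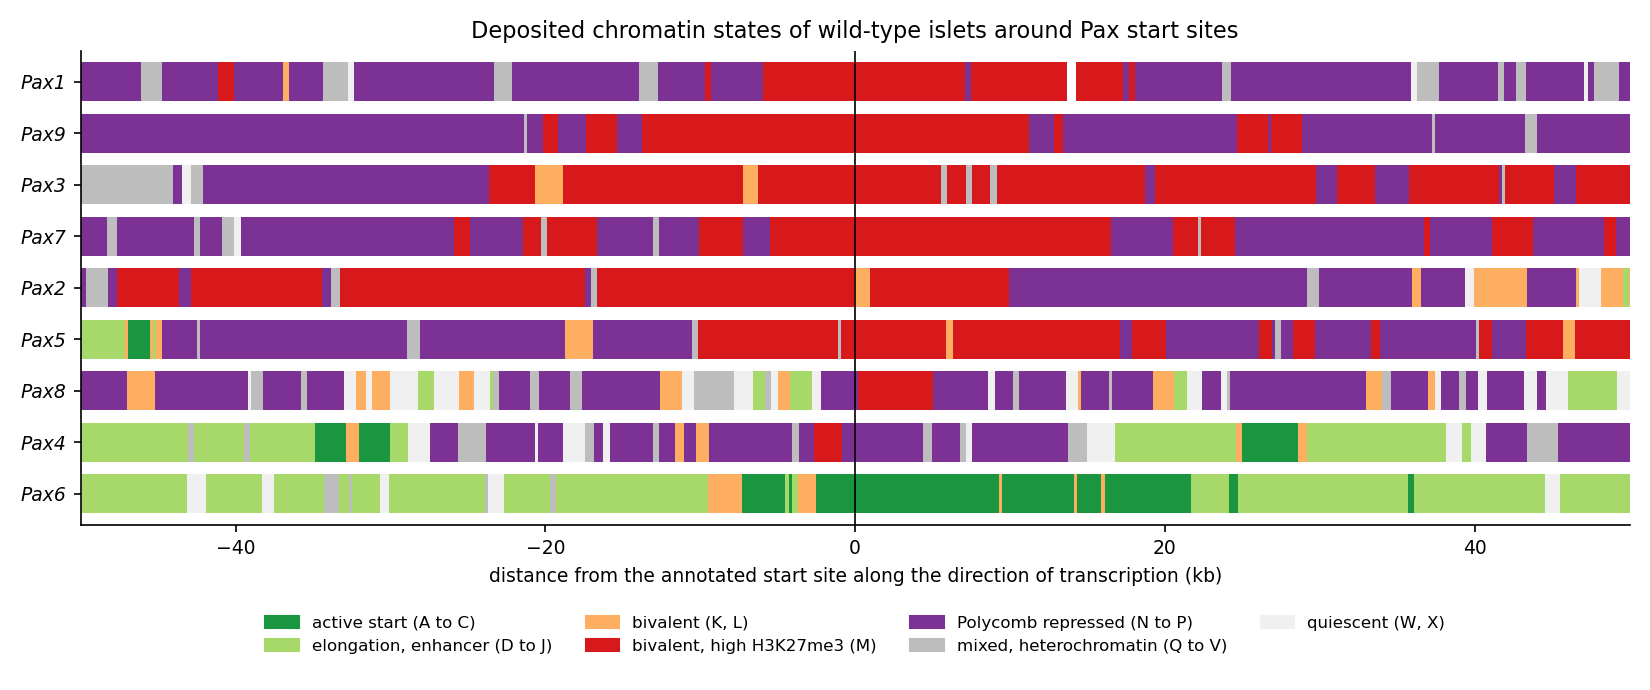
Chromatin states of wild-type islets from 50 kb before to 50 kb after the annotated start site (x axis, kb along the direction of transcription) for the 7 Pax genes and, below them, Pax4 and Pax6; colours group the deposited state letters, and white marks bins without a state. State M (red) spans the starts of Pax1, Pax9, Pax3, Pax7 and Pax5 for 6.8 to 25 kb, Pax8 lies in a patchwork of states, and Pax6 is in active states.

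Markers of other cells were set beside these values at 25 weeks. At that age 4.58% of all genes tested were called higher in KO over WT islets, and 27.1% of those that start in state M. Mesenchymal markers summed to 235 to 345 CPM in KO and 84.3 to 117 CPM in WT islets (4 of 6 called higher), duct markers to 560 to 710 and 265 to 323 CPM (2 of 6), macrophage markers to 157 to 446 and 93.2 to 180 CPM (1 of 7) and T cell markers to 8.32 to 12.5 and 0.232 to 4.58 CPM (0 of 5). Kidney uses Pax2 and Pax8, and its differentiation genes summed to 7.79 to 33.9 CPM in KO and 7.3 to 19.3 CPM in WT islets. Of these 5 genes 2 were tested and none was called higher. Most of the KO sum was Nphs1, at 32.9 and 7.31 CPM in replicates 2 and 3. Differentiation genes of skeletal muscle summed to 3.2 to 3.79 and 4.36 to 66.4 CPM (0 of 6 called higher). Schwann cell and neuronal markers summed to 46.5 to 71 CPM in KO and 20.1 to 71.7 CPM in WT islets (1 of 6 called higher). The gene called was Elavl3, a neuronal RNA-binding protein, at 0.721 ± 0.358 CPM in WT and 19.9 ± 5.16 CPM in KO islets (adjusted p = 0.00394 by edgeR). The mesenchymal genes called higher, Col1a1, Col1a2, Pdgfra and Dcn, all start in state M, and Elavl3 starts in state L. Those called among duct and macrophage markers, Krt19, Spp1 and Ptprc, start in neither state. The part of other cells in the Pax levels was not tested.

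Whether loss of Eed in β cells is followed by reads from these genes was asked at 25 weeks first. Pax1, Pax2, Pax3 and Pax9 rose in KO over WT islets, from no or almost no reads to between 8.45 and 23 CPM in both KO libraries. Pax5 measured 12.2 and 22.4 CPM but was not called, and was also read in 2 of the 3 WT libraries. Pax7 and Pax8 remained at 6 reads or fewer in each KO library. Of the 7 genes, 5 passed the filter on low counts, which Pax1, Pax2, Pax3 and Pax9 met through the KO libraries, and 4 were called higher (edgeR quasi-likelihood test, adjusted p under 0.05 over 18685 genes), beside 4.58% of all genes tested. Among genes that start in state M, 27.1% of the 902 tested were called higher.

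Pax9, a regulator of pharyngeal pouch, tooth and vertebral development, had 111 and 219 reads in the KO libraries (replicates 2 and 3), which is 8.45 and 8.84 CPM. It had 0 reads in each of the 3 WT and 2 HET libraries of this age. The groups therefore did not overlap, and the KO level was at least 89.4-fold higher than WT when WT is set to a floor of 3 reads over the group (0.0974 CPM). The adjusted p was 0.00403 by edgeR. Every bound and counting interval given here covers counting error only.

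Pax3, needed for neural crest and for the migrating precursors of limb muscle, had 152 and 262 reads, or 11.6 and 10.6 CPM, in the KO libraries and 0 reads in each WT and HET library. Its level was at least 112-fold higher than WT (adjusted p = 0.00417 by edgeR). Pax2, which acts in the ureteric bud, ear and optic stalk, had 138 and 293 reads, or 10.5 and 11.8 CPM, and likewise 0 reads in every WT and HET library. It was at least 117-fold higher than WT (adjusted p = 0.0135 by edgeR). For Pax2, Pax3 and Pax9 both KO libraries were far above all controls, and their CPM values lay close together. That closeness depended on TMM, whose factors were 0.76 and 1.5 for the KO replicates: scaled by the assigned reads alone, Pax9 measured 6.41 and 13.2 CPM, Pax3 8.78 and 15.8 CPM, and Pax2 7.97 and 17.7 CPM.

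Pax1, which with Pax9 patterns the sclerotome and the thymus, had 144 and 570 reads in the KO libraries, or 11 and 23 CPM. A single read was found in WT replicate 4 and none in the other WT and HET libraries of this age. The ratio of KO to WT was 580, with a 95% counting interval from 104 to 22944 because of that single read, and the log2 fold change was 8.68 ± 1.37 (SE; adjusted p = 0.00471 by edgeR). KO replicate 3 exceeded replicate 2 for Pax1 and Pax5, whereas Pax2, Pax3 and Pax9 differed little between the replicates on the TMM scale.

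In WT and KO libraries that share a replicate number, deviations from the group means correlated (r from 0.163 to 0.457). A WT and HET pair reached 0.161, and libraries of unlike number were not compared, so pairing was not established. The comparison was also fitted with replicate number as a block. With this replicate block, Pax2 (adjusted p = 0.0402), Pax3 (0.0413) and Pax9 (0.0479) were still called by edgeR and Pax1 was not (0.0559), which left 3 genes called. Pax2 also lost its call when either KO library was left out, with an adjusted p of 0.0541 without replicate 2 and 0.065 without replicate 3 (edgeR). These fits leave 1 KO library at 25 weeks, which is assumed to vary like the other groups.

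**Figure D2:**
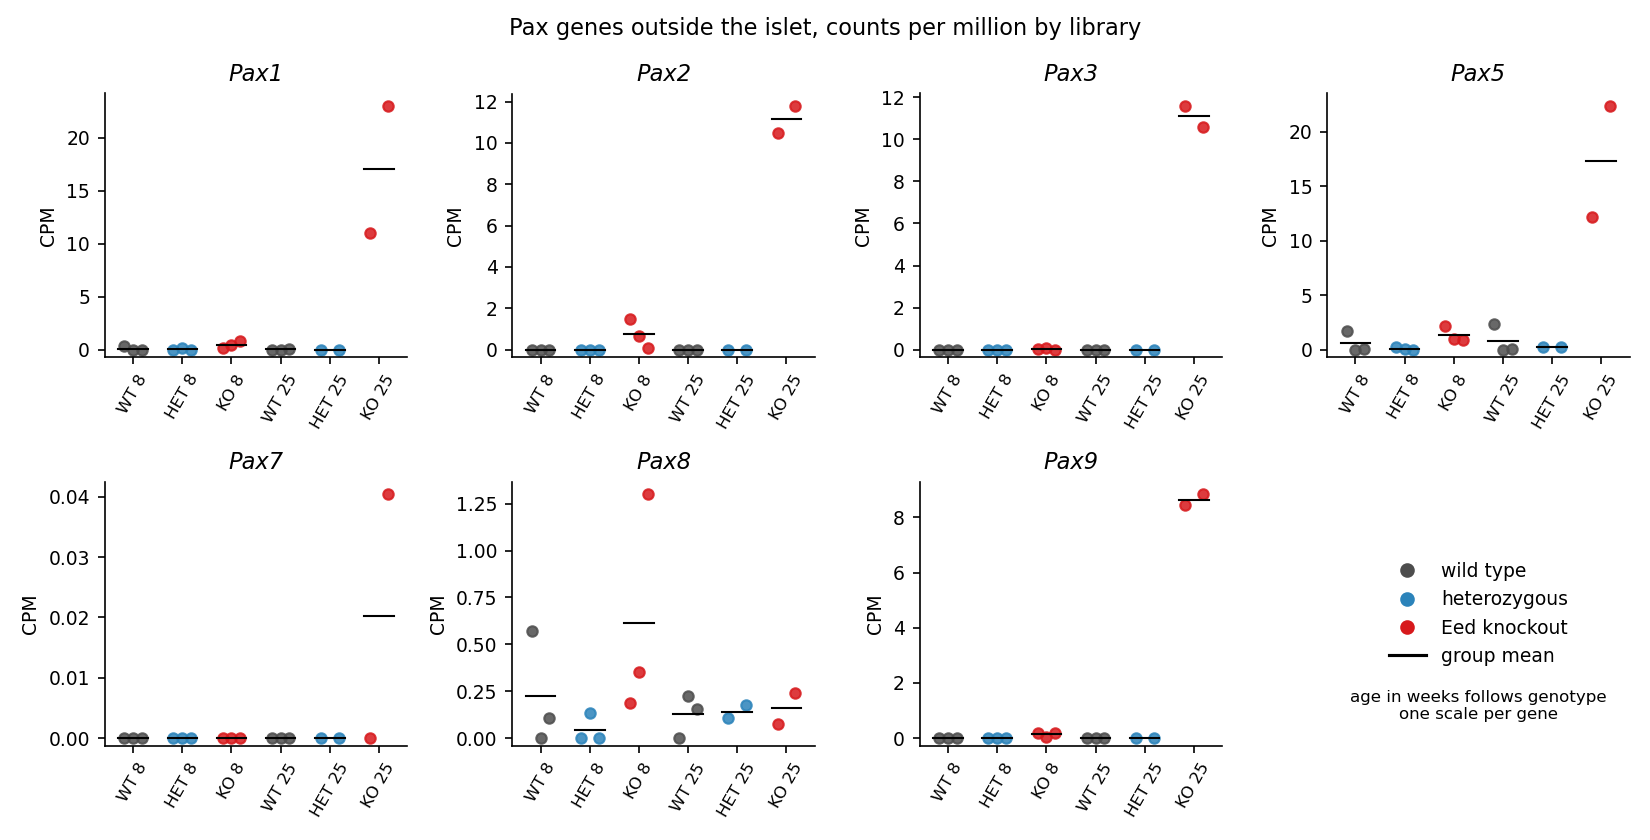
CPM (y axis, linear, one scale per gene) of the 7 Pax genes in each of the 16 libraries, grouped by genotype and age in weeks; points are libraries and lines are group means. In the panels of Pax1, Pax2, Pax3, Pax5 and Pax9 both KO libraries at 25 weeks, at 8.45 to 23 CPM, lie above all other libraries, while Pax7 peaks at 0.0404 CPM and Pax8 at 1.3 CPM.

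Pax5, the factor that commits lymphoid progenitors to the B cell lineage, had 160 and 554 reads in the KO libraries at 25 weeks. In WT islets it had 11, 0 and 1 reads (replicates 2, 3 and 4), and in HET islets 4 and 5. KO libraries measured 12.2 and 22.4 CPM and the highest WT library 2.4 CPM. The log2 fold change of 4.72 ± 1.65 (SE) did not pass the threshold (adjusted p = 0.131 by edgeR). The ratio of the summed reads was 48.3 (95% counting interval, 27.5 to 94). Without WT replicate 2 the adjusted p was 0.0384, and without the filter on low counts it was 0.0364.

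Reads from B lymphocytes moved with Pax5 in part. WT replicate 2 at 25 weeks, with 11 Pax5 reads, also held 26 Cd79b and 34 Ms4a1 reads, genes that mark B cells, while the other WT libraries of that age held at most 3 reads of either gene. Similarly, WT replicate 1 at 8 weeks held 27 Pax5 reads beside 35 Cd79b and 41 Ms4a1 reads. KO replicate 2 at 25 weeks held 160 Pax5 reads beside 125 Cd79b and 108 Ms4a1 reads. KO replicate 3 held 554 Pax5 reads beside 75 Cd79b and 61 Ms4a1 reads. Pax5 thus lay below the counts of Cd79b and Ms4a1 in these WT libraries and above them in both KO libraries at 25 weeks. WT replicate 2, the smallest library, was also the highest WT library of that age for other markers on the CPM scale. Igkc measured 251, 22 and 16.2 CPM in WT replicates 2, 3 and 4. Cd22 measured 2.62, 1.5 and 1.08 CPM there (12, 20 and 14 reads). Cd79a differed less, at 28.1, 21.2 and 22.7 CPM (129, 282 and 293 reads). In KO replicates 1, 4 and 5 at 8 weeks, Pax5 had 45, 19 and 10 reads. Cd79b had 11, 6 and 10 there, and Ms4a1 19, 11 and 3. Other B cell markers were above Pax5 in the KO libraries at 25 weeks. The immunoglobulin genes Igkc and Ighm had 4738 and 3581 reads in KO replicate 2 and 21051 and 904 reads in KO replicate 3. The 7 B cell markers, none of them at 0 in KO islets, summed to 682 and 908 CPM in KO, 73.1 to 497 CPM in WT and 21.1 to 32 CPM in HET islets at 25 weeks. No marker of the 7 was called higher, and Cd79a was called lower (log2 fold change −1.67, adjusted p = 0.0215 by edgeR). The part of B cells in the Pax5 level was not tested.

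**Figure D3:**
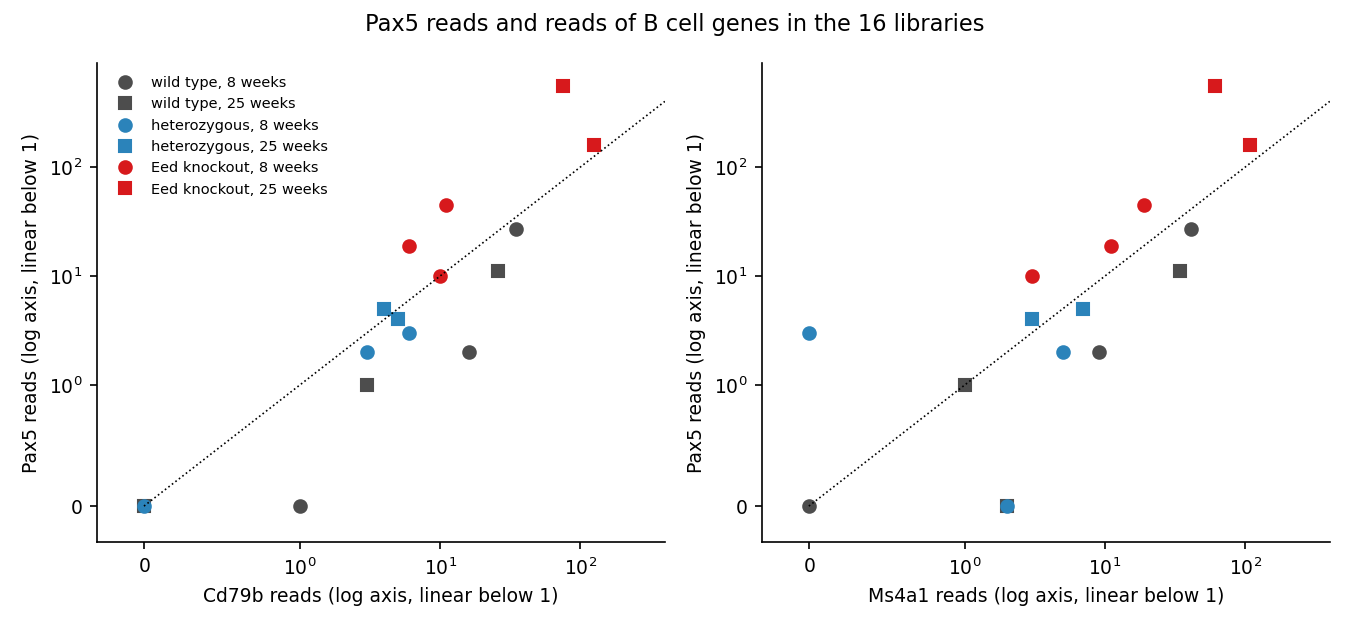
Pax5 reads (y axis) against reads of Cd79b and Ms4a1 (x axes) in the 16 libraries, on log axes that are linear below 1; colours give genotype, circles 8 weeks and squares 25 weeks, and the dotted line marks equal counts. Both KO libraries at 25 weeks lie above the line for both genes, at 160 and 554 Pax5 reads, while the WT libraries with 27 and 11 Pax5 reads lie below it. Other B cell genes, such as Igkc, exceeded Pax5 in the KO libraries and are not drawn.

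Pax7 and Pax8 did not follow the other members. Pax7, which keeps the satellite cells of muscle, had 0 reads in 15 of the 16 libraries and 1 read in KO replicate 3 at 25 weeks, although it sits in a run of state M of 22 kb. The floor of 3 reads over the KO libraries at 25 weeks is 0.0791 CPM, so a level under that could not have been seen. Pax8, a thyroid and kidney factor, had 1 and 6 reads in KO and 0, 3 and 2 reads in WT islets at 25 weeks, a ratio of 1.14 (95% counting interval, 0.311 to 4.54). Without the filter, Pax7 had an adjusted p of 0.749 and Pax8 of 1 over 30748 genes (edgeR). The interval of the Pax8 ratio ends far below the bounds of 89.4 and more found for Pax2, Pax3 and Pax9.

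Pax7 was not alone among genes with long state M runs. Of the 224 genes with an unbroken state M run of at least 10 kb at the start, 118 (52.7%) reached a mean of 1 CPM in KO islets at 25 weeks and 51 (22.8%) stayed under 0.1 CPM. Over all 1515 genes that start in state M, 749 (49.4%) reached 1 CPM, and the share was 52.9% for runs under 2 kb and 57.3% for runs of 20 kb or more, with 46.2% to 48.8% in the classes between. Among genes that start in state M and had no read in WT islets of that age, 8 of 141 with runs under 2 kb reached 1 CPM in KO islets (5.67%), as did 24 of 72 with runs of 10 to 20 kb (33.3%) and 22 of 55 with runs of 20 kb or more (40%). Pax3 belongs to the second of these classes, and Pax9, which reached that level, and Pax7, which did not, to the third. Genes of one cluster can share a run, so these shares are a description.

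**Figure D4:**
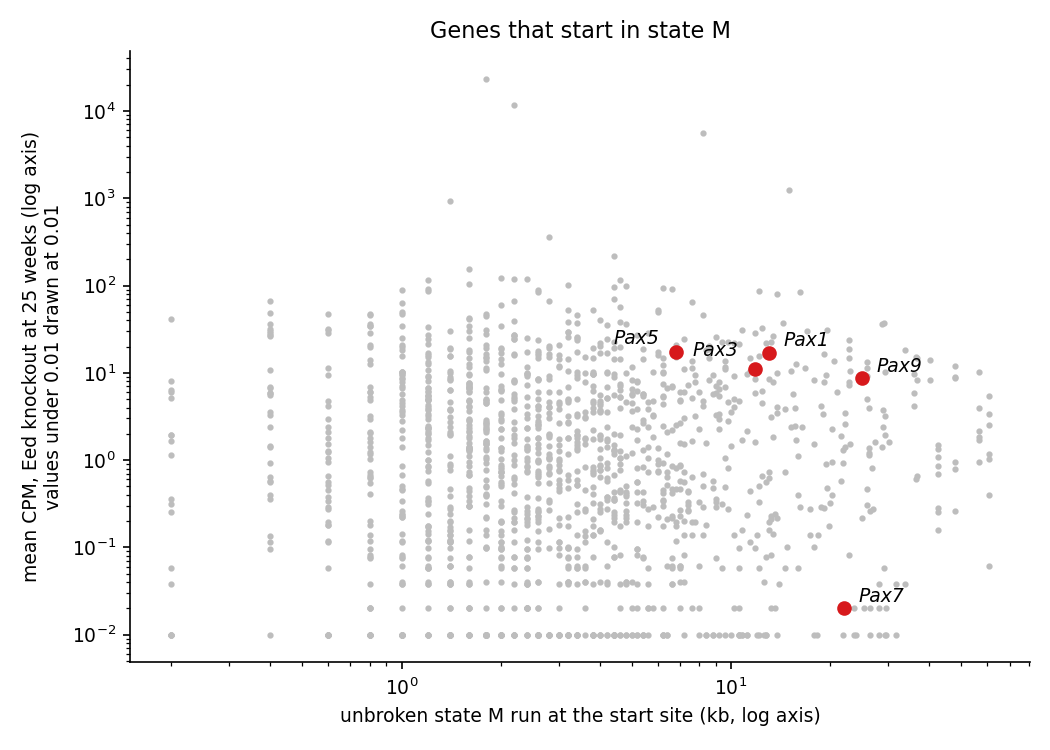
Mean CPM in KO islets at 25 weeks (y axis, log, values under 0.01 drawn at 0.01) against the length of the unbroken state M run at the start site (x axis, kb, log) for the 1515 genes that start in state M, with Pax genes in red. Pax9 and Pax7 have runs of 25 and 22 kb and means of 8.64 and 0.0202 CPM.

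At 8 weeks the same genes were near the detection limit. None of the 5 genes tested was called between KO and WT islets by edgeR, where 0.428% of all genes were called higher, and 3 of them (Pax2, Pax3 and Pax9) had an unadjusted p under 0.05, beside 1093 of all 18685 genes in the higher direction. Pax2 was the most abundant of these, with 31, 13 and 1 reads in KO replicates 1, 4 and 5 and 0 reads in every WT and HET library. Its level was at least 14.8-fold higher than WT (adjusted p = 0.197 by edgeR). Pax2 was called without the filter on low counts (adjusted p = 0.0332, edgeR), by DESeq2 (0.00439) and against WT and HET pooled (0.0382, edgeR). The 3 KO libraries at 8 weeks differed widely for this gene, from 0.0865 to 1.47 CPM.

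Pax9 had 4, 1 and 2 reads and Pax3 had 1, 2 and 0 reads in the KO libraries at 8 weeks, with none in WT or HET islets (adjusted p = 0.304 and 0.61 by edgeR). Pax1 had 4, 8 and 10 reads in KO and 5, 0 and 0 reads in WT islets, so the groups overlapped on the CPM scale (adjusted p = 0.694). Pax5 had 45, 19 and 10 reads in KO islets against 27, 0 and 2 reads in WT islets (adjusted p = 0.93), and again the groups overlapped. Pax8 had 4, 7 and 15 reads in KO and 9, 0 and 2 reads in WT islets, a ratio of 2.33 (95% counting interval, 1.11 to 5.23). Here too the groups overlapped, with WT replicate 1 at 0.571 CPM and KO replicate 1 at 0.19 CPM. Pax7 had no read at this age. Over all 7 genes together, KO islets at 8 weeks held 38 to 89 reads per library (2.51 to 4.22 CPM), WT islets 0 to 41 (0 to 2.6 CPM) and HET islets 0 to 8. At 25 weeks these sums were 706 and 1905 reads in KO (53.7 and 76.9 CPM), 3 to 11 in WT and 6 to 8 in HET islets.

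Within KO islets, Pax1, Pax3 and Pax9 rose from 8 to 25 weeks, where 1.02% of all genes were called higher. Pax3 went from 3 reads in all to 414, with a log2 difference of 7.41 ± 0.81 (SE; adjusted p = 0.0148 by edgeR). The log2 difference was 5.87 ± 0.71 for Pax9 (adjusted p = 0.0189) and 5.11 ± 1.02 for Pax1 (0.0396). It was 3.83 ± 0.91 for Pax2 (0.133) and 3.64 ± 1.48 for Pax5 (0.306), neither of which was called. Pax8 gave 26 reads at 8 and 7 at 25 weeks, a ratio of 0.373 (95% counting interval, 0.137 to 0.883). Of the 26, 15 came from KO replicate 5. The ages overlapped, at 0.19, 0.351 and 1.3 CPM and at 0.0761 and 0.242 CPM. Without either KO library at 25 weeks, or without KO replicate 4 at 8 weeks, none of the 3 calls was kept, and without KO replicate 5 at 8 weeks 1 was. Without KO replicate 1 at 8 weeks, or WT replicate 3 or 4 at 25 weeks, 2 were called. With 1 KO library left at 25 weeks, its spread is again taken from the other groups. Age was compared between different animals, and no batch was given.

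Whether the KO effect itself differed between the ages could be tested for Pax1 and Pax5 only, since Pax2, Pax3 and Pax9 had no WT read at either age. The log2 effect at 25 weeks exceeded that at 8 weeks by 6.52 ± 1.93 (SE) for Pax1 (adjusted p = 0.313 by edgeR) and by 3.54 ± 2.13 for Pax5 (0.798). All 5 WT reads of Pax1 at 8 weeks came from WT replicate 1. Without that library no WT read is left at that age, so the difference cannot be estimated.

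With the HET genotype, Pax2, Pax3, Pax7 and Pax9 had 0 reads in all 5 libraries, as in the WT islets. Pax5, Pax8 and Pax1 had at most 5 reads in any HET library. Neither Pax1 nor Pax5 was called between HET and WT islets at 8 weeks. There, 0% of the 18828 genes tested were called higher by edgeR (1177 at an unadjusted p under 0.05, and 120 by DESeq2). The same held at 25 weeks, where 0% were called higher by edgeR (73 unadjusted, and 2 by DESeq2). For the other members a call was not possible at either age. Pax2, Pax3 and Pax9 had no read in either group, and Pax7 and Pax8 were not tested. With 0 reads, levels of up to 0.0583 CPM at 8 weeks and 0.0845 CPM at 25 weeks could not be seen in HET islets.

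Against HET islets at 25 weeks, where 5.41% of all genes were called higher, the same 4 genes were called: Pax1 (at least 223-fold higher, adjusted p = 0.0046), Pax2 (at least 135-fold, 0.0178), Pax3 (at least 129-fold, 0.00553) and Pax9 (at least 103-fold, 0.00529; all by edgeR). Without either HET library, Pax1 (adjusted p = 0.0559 and 0.0648 without replicates 1 and 2) and Pax2 (0.102 and 0.115) lost their call by edgeR, which left Pax3 and Pax9. Without either KO library, Pax2 lost its call (0.062 and 0.0568 without replicates 2 and 3, edgeR). Pax5 had a ratio of 74.3 (95% counting interval, 38.9 to 163; adjusted p = 0.0632). At 8 weeks, where 3.6% were called higher over HET islets, none of the 5 genes was called by edgeR or DESeq2, and all 5 had an unadjusted p under 0.05, beside 2613 of all 18828 genes in the higher direction. The comparisons with WT and with HET share the KO libraries.

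Per kb of annotated exon, Pax1 led among the 5 genes read in KO islets at 25 weeks. It measured 3.78 ± 1.9 CPM per kb (SD, n = 2 here and below), Pax2 2.06 ± 0.173, Pax5 1.95 ± 0.814, Pax3 1.79 ± 0.113 and Pax9 1.71 ± 0.0551, and no neighbours in this order differed by more than the larger SD. The Pax1 libraries (2.44 and 5.12) did not overlap those of Pax2 (1.94 and 2.19), Pax3 or Pax9. Pax8 (0.0263 ± 0.0194) and Pax7 (0.00344 ± 0.00487) followed below the ranges of the others. In WT islets of the same age Pax5 led with 0.0932 ± 0.154 CPM per kb (n = 3), followed by Pax8 with 0.0209 ± 0.019 and Pax1 with 0.00574 ± 0.00994, all within their spread.

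Pax6, the main islet member of the family, moved the other way. It fell from 367 ± 43 CPM (SD, n = 3) in WT to 97.3 ± 28.9 CPM (n = 2) in KO islets at 25 weeks, by 1.97 ± 0.29 on the log2 scale (SE; adjusted p = 0.00347 by edgeR). Per kb it still measured 8.32 ± 2.47 CPM there, above each of the 7 other genes. At 8 weeks its log2 difference was −0.21 ± 0.24 (adjusted p = 0.92). Pax4 had at most 1 read in any library.

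Some genes that act with or below these Pax factors in their own organs were called. At 25 weeks 4.58% of all genes tested were called higher, as were 27.1% of those that start in state M. In state L 348 of 2512 were. Every gene of the organ and partner lists called higher starts in state M or L. A link of these genes to the Pax levels was not tested. The lists were chosen with earlier results of these data known, and the median log2 fold change over all genes was 0.03 at 25 weeks. Of 10 tested genes that partner Pax factors in kidney, ear and eye (Six2 to Six6 and the Eya and Dach families), 4 were called higher and 1 lower at 25 weeks, with a median log2 fold change of −0.56. Six3, an eye and forebrain factor, had 0 reads in all WT and HET libraries and 32.9 ± 3.64 CPM (SD, n = 2) in KO islets (adjusted p = 0.000443 by edgeR). Six2, which holds kidney progenitors, measured 0.128 ± 0.161 CPM in WT and 18 ± 10.2 CPM in KO islets (0.0035). Eya2, a transcriptional coactivator, measured 1.16 ± 0.447 and 13.6 ± 0.153 CPM (0.00254), and Six6 had no WT read and 1.61 ± 0.625 CPM in KO islets (0.0471). Dach1 was called lower, at 55.6 ± 10.4 in WT and 26.5 ± 8.14 CPM in KO islets (0.0481).

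Of 10 tested genes of the kidney and ear, in which Pax2 and Pax8 act, 3 were called higher and 1 lower (median log2 fold change 1.87). Gata3, a factor of the nephric duct and inner ear, rose from 0.0251 ± 0.0434 CPM in WT to 13.8 ± 3.72 CPM in KO islets (adjusted p = 0.000575 by edgeR). Hoxd11 had no WT read and 8.63 ± 5.32 CPM in KO islets (0.0226), and Emx2 measured 0.0251 ± 0.0434 and 3.94 ± 1.8 CPM (0.0217). Wnt4, which is read in islets, fell from 194 ± 19.6 to 66.6 ± 19.6 CPM (0.00468). Of 6 tested thyroid genes 3 were called higher and none lower (median 2.54), although Pax8 itself was not read above WT. Nkx2-1, a thyroid and lung factor, had 1 WT read and 15.3 ± 2.33 CPM in KO islets (0.00368), and Foxe1 had none and 2.94 ± 0.0433 CPM (0.0149). The iodide carrier Slc5a5 rose from 0.605 ± 0.218 to 3.75 ± 0.351 CPM (0.0342), and thyroglobulin (Tg) had 1 and 3 reads in KO islets and did not pass the filter.

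Of 9 tested muscle and neural crest genes, 3 were called higher and none lower (median log2 fold change 1.83). Lbx1, expressed in migrating muscle precursors, rose from 0.0251 ± 0.0434 CPM in WT to 11.2 ± 0.611 CPM in KO islets (adjusted p = 0.00139 by edgeR), Tfap2a from 0.0978 ± 0.111 to 2.42 ± 0.406 CPM (0.0182) and Msx1 from 0.806 ± 0.379 to 16.9 ± 7.33 CPM (0.00153). Myod1, Myf5 and Myog, the factors that make muscle, had 0 reads in every WT and KO library of both ages. Of 10 tested genes of the sclerotome, thymus and teeth, 2 were called higher and none lower (median 4.28): Tbx18, at 0.0251 ± 0.0434 CPM in WT and 5.91 ± 0.473 CPM in KO islets (0.00907), and Uncx, with no WT read and 2.46 ± 1.32 CPM in KO islets (0.0295). Of 3 tested genes of the midbrain and hindbrain, En1 and En2 were called higher. En2 reached 12.7 ± 0.048 CPM (0.00451) and En1 9.51 ± 0.537 CPM (0.00479) in KO islets, both with 0 reads in every WT library. Of the 9 genes of the B cell list none was called higher and Cd79a was called lower. At 8 weeks, Six3 and Msx1 were the genes of these lists called higher in KO islets.

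**Figure D5:**
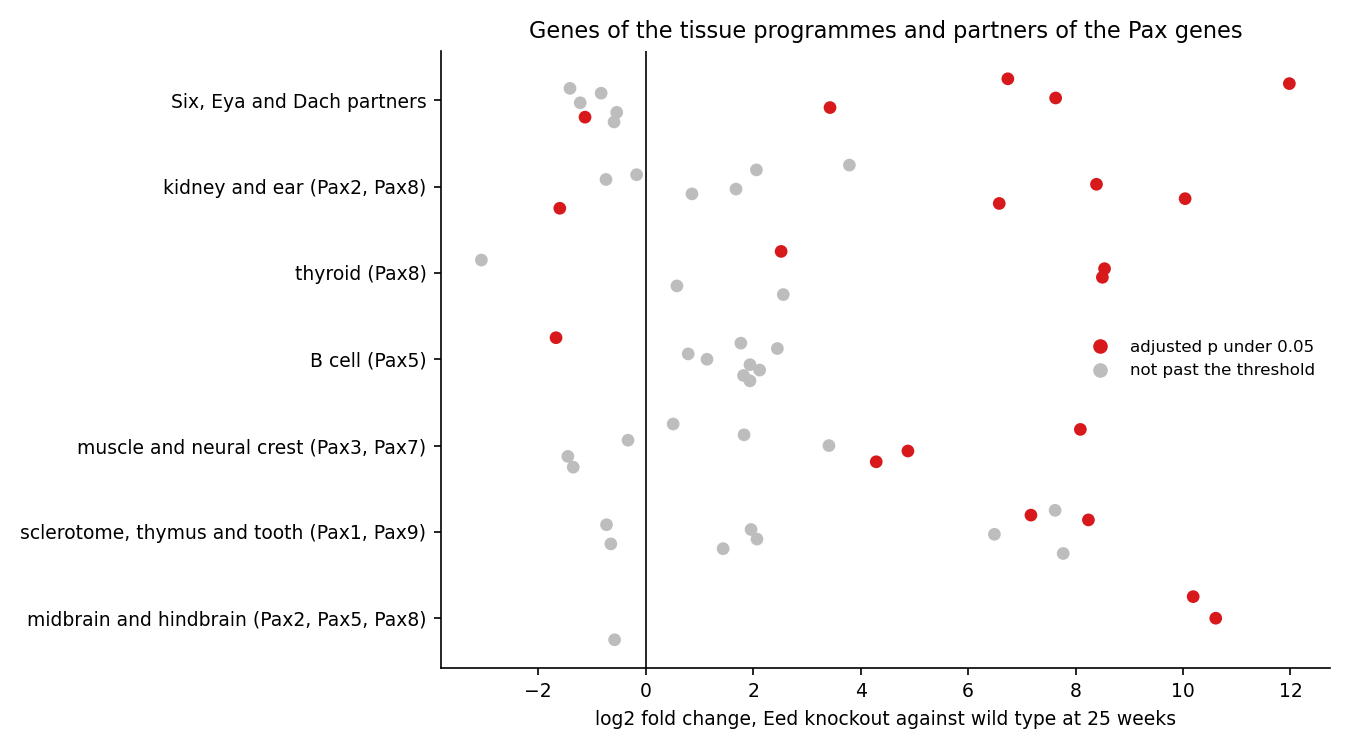
Log2 fold change of KO over WT islets at 25 weeks (x axis) for the tested genes of the 7 lists of partners and organ genes (rows), in red where the adjusted p was under 0.05 by edgeR and grey otherwise; each point is a gene. Values for genes with no WT read depend on the small count edgeR adds and only mark the direction; of the red points, all but Dach1, Wnt4 and Cd79a are on the higher side.

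The genes most like each member across the 16 libraries were found by Pearson's r of log2 CPM, given as a description, since the 2 KO libraries at 25 weeks set most of it. Pax3 was closest to the hypothalamic factor Otp (r = 0.999), Six3os1, the vesicular GABA carrier Slc32a1, Hoxb13 and Evx1os. Pax9 was closest to Slc32a1 (0.994), the heart factor Nkx2-5, Six6, Hoxb13 and 2610035F20Rik. Pax2 was closest to Barhl2 (0.983), Gm43050, Hoxc13, Six3 and Foxd1, and Pax1 to Hoxc10 (0.977), Foxl1, Vax2, Pou3f3 and Dscaml1. All of these but Dscaml1 (state N) and 2610035F20Rik (state L) start in state M. Pax5 was closest to Fam196b (0.957), Gnal, Smarcd3, the B cell coactivator Pou2af1 and Disp3, none of which starts in state M. Pax8 was closest to Nos2, the inducible nitric oxide synthase (0.811), Gdpd3, Ms4a6c, Slfn4 and Mcoln2. Among the members, r was 0.98 for Pax3 and Pax9 and 0.02 for Pax3 and Pax8.

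No 50-base stretch of the annotated transcripts of one member, on either strand, was found in those of another. Stretches shared with genes outside the family numbered 155 of 4429 at Pax1, 33 of 6185 at Pax3, 201 of 5055 at Pax9 (140 of them with Slc25a21) and 276 of 6237 at Pax8 (all with Gm13415), and none were found at Pax2 or Pax7. At Pax5, 665 of 9479 were shared, 588 of them with the overlapping opposite-strand model 5730488B01Rik. Since the strand setting of the counting was not given in the sources used here, reads of the genes and of their antisense partners cannot be told apart where they overlap.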

How the data were processed

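Bulk RNA-seq counts of islets were analysed. Per the labels and the study's methods, the authors mapped TruSeq libraries to GRCm38 with TopHat2 2.0.13 and deposited raw counts per Gencode gene from featureCounts (Subread 1.5.0-p1), without normalization. The deposited chromatin states (letters, no numeric unit) came from EpicSeg, with replicates averaged and state names as in the study's methods. Gene positions and names were taken from Gencode M21, a later release, which matched 47224 of 47937 identifiers.

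Counts were filtered by edgeR's filterByExpr, TMM-scaled and tested with edgeR 4.0.16 (quasi-likelihood, Benjamini-Hochberg adjustment over all genes tested, threshold 0.05). KO and WT libraries (11) were fitted in 4 groups, and all 16 libraries in 6 groups for HET. The script was tested on simulated data. Alternatives were library size scaling, DESeq2 1.42.0 and its size factors, no filter, pooled controls, leaving out libraries and a replicate block. The replicate block was tried because deviations from group means correlated between KO and WT libraries of one number (r = 0.457, 0.163, 0.176 and 0.255). For pairs with HET r ran from −0.015 to 0.161. Pairing was not established, and the main fits do not use it. No 2 libraries agreed within counting noise. Log2 CPM used a prior count of 2.

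The members and lists were chosen with earlier results of these data known. Named were all members, Pax4, Pax6, Eed, up to 4 called genes per organ list, the 5 genes most like each member with at least 10 reads, and genes within 100 kb. Some genes of the lists are not reported here and do not enter the counts, medians and sums given for their lists.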

Additional observations from a re-analysis of the deposited data

How the results depend on the processing

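The number of Pax genes called higher in KO over WT islets at 25 weeks was 4 and ranged from 3 to 5 over all alternatives, 3 with the replicate block. Pax3 and Pax9 kept their call in all 18 (largest adjusted p 0.0413 and 0.0479), Pax1 in 17 and Pax2 in 16, and Pax5 gained one in 3. At 8 weeks none was called, and 1 was (Pax2) without the filter, with DESeq2, or with WT and HET pooled. For the KO effect at 25 minus 8 weeks none was called and 1 was (Pax1) with DESeq2. For KO islets at 25 against 8 weeks 3 were called, and 0 to 3 when a library was left out; a replicate block could not be fitted there. Over HET islets none was called at 8 weeks, with 1 without the filter and 0 to 1 when a library was left out (1 without WT replicate 2 at 25 weeks, KO replicate 1 at 8 weeks or WT replicate 1 at 8 weeks). Over HET islets at 25 weeks 4 were called, 0 with the replicate block and 2 to 5 when a library was left out (2 without either HET library). The number of Pax genes starting in state M was 5, and 7 when any annotated start or any bin within 500 bp was taken. No direction reversed. The number of all genes called higher over WT at 25 weeks was 856, against 1336 with DESeq2 and 1828 with pooled controls; at 8 weeks it was 80, against 133 without the filter, 358 with DESeq2, 431 with pooled controls and 0 with the replicate block. With 2 KO libraries at 25 weeks, the spread of that group rests on a single difference, and genes with under about 3 reads over a group could not be seen.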

Other observations

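Transcripts that overlap or neighbour the members were read at low levels in the same libraries. The antisense models AI646519 at Pax1 and Gm15524 at Pax9, which start 0.868 kb and 1.2 kb from the start of the Pax gene, had 7 and 9 reads in the KO libraries at 25 weeks and 0 in every other library. Opposite to Pax5, Gm12462 had 23 reads and 5730488B01Rik 19 in these 2 KO libraries, with 4 and 6 in the KO libraries at 8 weeks, 0 in WT islets, and 0 and 1 in HET islets. Nkx2-9, a homeobox gene of the floor plate that starts 78.5 kb from Pax9, also in state M, had 19 reads in KO islets at 25 weeks, 2 at 8 weeks and 0 in WT and HET islets. Zcchc7, which starts 45.4 kb from Pax5 in state L, measured 60.5 ± 4.31 CPM (SD, n = 3) in WT and 50.4 ± 3.52 CPM (n = 2) in KO islets at 25 weeks (log2 fold change −0.32, adjusted p = 0.361 by edgeR). Pax6os1, antisense to Pax6, fell from 15.6 ± 5.08 to 4.5 ± 0.199 CPM (adjusted p = 0.0078 by edgeR). Whether the reads opposite to Pax1, Pax5, Pax6 and Pax9 came from these models or from the Pax genes was not tested.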
